A study of Mus musculus with 6 samples.

Results

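The nuclear-encoded genes of oxidative phosphorylation were followed across the cell classes, clusters and libraries of a single-nucleus RNA data set from mouse hippocampus. They were chosen by gene symbol alone, as subunit genes of the NADH dehydrogenase (Nduf), succinate dehydrogenase (Sdh), cytochrome bc1 (Uqcr), cytochrome c oxidase (Cox) and ATP synthase (Atp5) families without predicted genes and pseudogenes, which left 81 of the 26049 genes in the table. Of these, 35 belong to complex I, 4 to complex II, 8 to complex III, 17 to complex IV or its close relatives and 17 to complex V.

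The hippocampi came from male PS19 mice, which carry human tau with the P301S mutation under the mouse prion promoter. Every library carries this transgene, so no mouse without it enters a comparison. There are 6 libraries, each the only one of its kind: TBI with AAV-VEGFC, right side; TBI with AAV-VEGFC, left side; TBI with AAV-GFP, right side; TBI with AAV-GFP, left side; sham with AAV-VEGFC, right side; and sham with AAV-GFP, right side. TBI is traumatic brain injury, VEGFC is the growth factor of lymphatic vessels, and AAV is the viral vector that carried it or the fluorescent protein GFP. The labels give neither the age of the mice nor the number pooled in a library, and since no group has a second library, p-values measure the spread among these 6 libraries, which may be technical.

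The libraries held 3676 to 6002 nuclei, 28650 in all, with 15358208 to 18379148 unique molecular identifiers (UMIs) in each and median nuclei of 2689 to 3704 UMIs. The authors' annotation divides them into 9 classes, from 12428 excitatory neurons to 406 microglia. Levels here and below are UMIs of a gene or list per 1000000 UMIs of the same class in the same library (CPM), and ranges run over the 6 libraries. In 8 of the 9 classes the marker list of that class was at its highest level. The mixed neurons were the exception, since the thalamic and mixed list was highest in fibroblasts. The 5 choroid plexus markers summed to 22849 CPM in choroid plexus nuclei and to 298 to 769 in the other 8 classes. Ttr, the transthyretin gene and one of these markers, had 9764 CPM in choroid plexus nuclei, against 503 in astrocytes and 215 in excitatory neurons. Only 91 of 28559 barcode sequences occurred in more than 1 library.

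Oxidative phosphorylation passes electrons from NADH and succinate through complexes I to IV to oxygen and uses the proton gradient so built to make ATP in complex V. Most subunits are encoded in the nucleus and imported, while a small core set is encoded in mitochondrial DNA. Several subunits of cytochrome c oxidase exist as a general isoform and a second isoform that is known from muscle, heart, testis or other tissues, and the c-ring of ATP synthase has 3 genes for the same mature protein. In the brain, neurons and the ion-pumping epithelium of the choroid plexus are known for a high use of ATP, and fast-spiking interneurons for dense mitochondria.

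The isoform pairs of cytochrome c oxidase differed most sharply between classes, and their promoters are shown for that reason. Each runs 5′ to 3′ from 250 bases before to 50 bases after the annotated start, taken from RefSeq on GRCm38.p6, and capitals mark motif matches on either strand. The ETS motif searched was CCGGAAG. The CCAAT box was searched by its 5 letters, and the box of TATA promoters as TATAAA. No match to one motif overlapped a match to another here. The second isoform of each pair stands above its general partner.
Cox6b2: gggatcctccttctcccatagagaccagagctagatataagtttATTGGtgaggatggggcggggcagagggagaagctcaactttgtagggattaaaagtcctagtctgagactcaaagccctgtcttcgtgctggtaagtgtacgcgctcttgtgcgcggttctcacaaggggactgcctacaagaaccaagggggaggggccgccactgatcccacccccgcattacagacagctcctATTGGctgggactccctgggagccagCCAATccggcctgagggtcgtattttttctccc
Cox6b1: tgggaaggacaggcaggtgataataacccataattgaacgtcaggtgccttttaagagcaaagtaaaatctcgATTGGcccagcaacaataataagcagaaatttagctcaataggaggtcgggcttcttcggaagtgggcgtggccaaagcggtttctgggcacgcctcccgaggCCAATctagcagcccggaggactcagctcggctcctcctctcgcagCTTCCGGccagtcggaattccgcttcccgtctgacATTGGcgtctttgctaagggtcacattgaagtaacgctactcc
Cox8b: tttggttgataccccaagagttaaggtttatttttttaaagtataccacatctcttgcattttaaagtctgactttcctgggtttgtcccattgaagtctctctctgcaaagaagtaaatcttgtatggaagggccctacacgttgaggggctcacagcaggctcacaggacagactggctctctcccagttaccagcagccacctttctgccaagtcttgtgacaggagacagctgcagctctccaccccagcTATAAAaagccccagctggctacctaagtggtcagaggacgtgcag
Cox8a: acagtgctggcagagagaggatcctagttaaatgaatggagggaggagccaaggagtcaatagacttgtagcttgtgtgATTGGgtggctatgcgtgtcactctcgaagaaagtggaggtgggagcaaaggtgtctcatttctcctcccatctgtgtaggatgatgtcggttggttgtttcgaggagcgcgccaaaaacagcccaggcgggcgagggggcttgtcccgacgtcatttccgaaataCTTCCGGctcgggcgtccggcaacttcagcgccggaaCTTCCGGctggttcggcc
Cox7b2: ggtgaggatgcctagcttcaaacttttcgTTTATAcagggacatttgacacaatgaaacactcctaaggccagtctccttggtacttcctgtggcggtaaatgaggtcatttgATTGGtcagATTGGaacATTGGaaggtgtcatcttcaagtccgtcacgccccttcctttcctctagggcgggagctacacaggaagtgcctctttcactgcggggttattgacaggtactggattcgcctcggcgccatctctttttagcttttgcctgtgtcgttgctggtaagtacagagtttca
Cox7b: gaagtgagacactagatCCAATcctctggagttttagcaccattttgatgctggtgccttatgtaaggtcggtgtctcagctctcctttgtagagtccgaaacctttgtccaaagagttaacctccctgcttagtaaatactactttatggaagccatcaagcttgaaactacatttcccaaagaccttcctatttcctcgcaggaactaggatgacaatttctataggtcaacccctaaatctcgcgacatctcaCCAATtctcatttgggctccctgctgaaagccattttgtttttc
These windows lie at chr7:4753045-4753344 on the minus strand (Cox6b2), chr7:30626065-30626364 minus (Cox6b1), chr7:140900397-140900696 minus (Cox8b), chr19:7217567-7217866 minus (Cox8a), chr5:71548156-71548455 minus (Cox7b2) and chrX:106015450-106015749 plus (Cox7b).

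Promoters were found for 67 of the 81 genes. Members were counted once per gene, with a match in any promoter of the gene and CpG pairs averaged over them. The background was counted once per promoter. Among the 63 that are not second isoforms, 17 (27%) held the ETS motif, against 8.86% of all 32851 promoters in the table, and 17 (27%) held the NRF1 motif (GCGC, any base, then TGCGC), against 4.6%. The YY1 motif (AAGATGGC) was in 9 (14.3%), against 2.75% of all promoters. None of these 3 motifs was in the 4 second-isoform promoters (Cox6b2, Cox8b, Cox7b2 and Cox7a1). The letters TATAAA were in 2 of those 4, in 6 of the other 63 (9.52%) and in 13.6% of all promoters. The letters CCAAT were in 3 of 4, in 27 of 63 (42.9%) and in 37.4%. Matches were counted anywhere in the window, so they are not placed as working boxes. TATAAA lies after the annotated start in Cox8b and near the upstream end of the window in Cox7b2. Here the general genes also had a median of 19 CpG pairs per promoter, against 8.5 in the second isoforms and 7 in all promoters. ETS, NRF1 and YY1 are factors known to bind promoters of respiratory chain genes; the matches only describe the letters in these windows.

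Choroid plexus epithelium had the highest summed level of the 81 genes. It averaged 5102 ± 260 CPM (SD, n = 6 libraries) with a range of 4692 to 5396. Fibroblasts followed at 4050.4 to 4491, astrocytes at 3549.7 to 3972, inhibitory neurons at 3321 to 3600.1, microglia at 3189.5 to 3598, mixed neurons at 2839.7 to 3859.6, oligodendrocytes at 2893 to 3387, excitatory neurons at 2723 to 3186 and oligodendrocyte precursors (OPC) at 2608 to 3127. The ranges of choroid plexus, fibroblasts and astrocytes did not overlap one another, whereas those of the last 3 classes did. Classes were built from these counts, so the order is a description without a test.

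Some of these levels were lower among nuclei with more UMIs. The median nucleus held 2374 UMIs in choroid plexus, 1360 in fibroblasts, 1671 in astrocytes, 1805 in OPC and 4222 in excitatory neurons. Among nuclei of at least 2000 UMIs astrocytes averaged 3484 CPM and OPC 2589 CPM. The part of depth in the order of classes was not tested further.

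**Figure D1:**
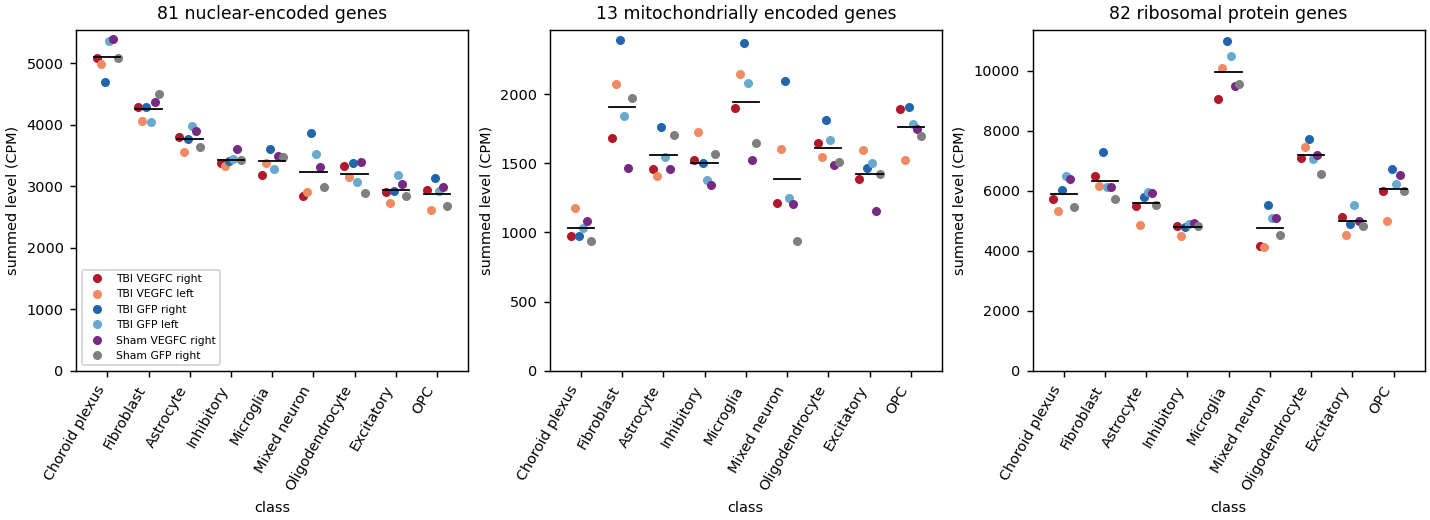
Summed level in CPM (y axis, from 0) for the 81 nuclear-encoded oxidative phosphorylation genes, the 13 mitochondrially encoded subunit genes and 82 cytosolic ribosomal protein genes in 9 classes (x axis); each point is 1 library, coloured by group, and bars are means of 6 libraries. Choroid plexus is highest for the nuclear-encoded genes, at 4692 to 5396 CPM, and has the lowest mean for the mitochondrially encoded genes.

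Within each library the choroid plexus sum was 1.74 ± 0.08 times that of excitatory neurons (SD, n = 6; 1.61 to 1.83). All 5 complexes shared the direction in every library, at 1.56 times for complex I, 1.58 for complex II, 1.88 for complex III, 1.84 for complex IV and 1.91 for complex V. The 13 mitochondrially encoded subunits ran the other way, with 940 to 1179 CPM in choroid plexus and 1159 to 1596 CPM in excitatory neurons. The deposited nuclei all have less than 1% mitochondrial UMIs (highest 0.999%), so these levels describe what that limit leaves in nuclei. Cytosolic ribosomal protein genes were 1.19 times as high in choroid plexus, and 13 other short messages 1.09 times.

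Member by member, 48 of the 77 genes that reached 10 CPM in either class were higher in choroid plexus than in excitatory neurons with no overlap between the 6 values of each (62.3%). The same held for 41.6% of all 12332 genes compared. In the opposite direction 1 member, Ndufa10, did so, against 22.7% of all genes. The median ratio was 1.71 for the members and 1.33 for all genes. Among nuclei of at least 2000 UMIs 38 of 76 members were higher without overlap (50%), against 39.1% of all genes. All 8 complex III genes, 13 of 17 complex V genes, 8 of 13 complex IV genes, 3 of 4 complex II genes and 16 of 35 complex I genes were among the 48.

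Complex III shows the pattern in each of its genes. Uqcrb, a small subunit of the cytochrome bc1 complex, ran from 73.1 over a median of 80.6 to 83.3 CPM in choroid plexus and from 27.4 over 29.2 to 32.3 CPM in excitatory neurons. Uqcr10, another small subunit, had 55.5, 77.5 and 95.4 CPM as lowest, median and highest in choroid plexus, against 30.9, 34.1 and 42.8 CPM in excitatory neurons. Uqcrc2, a core subunit, was the least variable of the 8 across classes and still stood at 50.3 to 61.1 CPM in choroid plexus, against 36.1 to 42.2 CPM in excitatory neurons. No choroid plexus library fell within the neuronal range for any of the 8 genes. Whether strand was used in counting is not stated, so genes that overlap another coding gene are uncertain: of those named here these are Uqcrb (Gm10767), Uqcrc2 (Pdzd9), Atp5a1 (Haus1), Atp5f1 (Wdr77), Ndufa4l2 (Shmt2), Ndufa11 (Vmac), Ndufa13 (Yjefn3 and Tssk6), Ndufb8 (Gm20538), Ndufb11 (Rbm10), Ndufs1 (Eef1b2), Ndufs3 (Kbtbd4) and Cox6a2 (Itgad), part of 24 such genes among the 80 with coordinates.

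In complex V the values are given for the c-ring and for the alpha and beta genes of the catalytic head. Atp5g1, the first of the 3 c-ring genes (chr11:96068852-96075670, minus strand, GRCm38), had a lowest, median and highest level of 138, 161 and 201 CPM in choroid plexus and 44, 47.4 and 54 CPM in excitatory neurons. It stood at 31 to 48.2 CPM in astrocytes and 0 to 44.4 CPM in fibroblasts, so choroid plexus was apart from every other class. Atp5g3, the third, ran from 59.7 to 87.3 CPM in choroid plexus and from 30.6 to 41.9 CPM in excitatory neurons. Atp5g2 differed in its top class, with 65.6 to 172 CPM in fibroblasts, 64 to 99 CPM in choroid plexus and 40.2 to 54.3 CPM in excitatory neurons, and the first 2 of these ranges overlapped.

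The head subunits Atp5a1 (alpha) and Atp5b (beta), which form the catalytic sites, moved alike. Atp5a1 had 180, 221 and 245 CPM in choroid plexus and 90.6, 91.6 and 104 CPM in excitatory neurons as lowest, median and highest. Atp5b had 119, 133 and 188 CPM in choroid plexus and 66.2, 70.7 and 73.8 CPM in excitatory neurons. Atpif1, the inhibitor of ATP synthase, which the symbol rule does not include, went against them: it ran from 71.5 to 80.3 CPM in inhibitory neurons, from 60.2 to 70.9 CPM in excitatory neurons and from 31.6 to 40.8 CPM in astrocytes. In choroid plexus it spanned 35.4 to 69.9 CPM and overlapped excitatory neurons.

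The 4 subunits of complex II, which also act in the TCA cycle, were less even. Sdha, the flavoprotein, reached 86 to 102 CPM in choroid plexus and 58.8 to 66.9 CPM in excitatory neurons. The membrane anchors Sdhc and Sdhd stood at 27.1 to 68.3 and 15.3 to 29 CPM in choroid plexus, against 21.8 to 26.4 and 10.6 to 13.9 CPM in excitatory neurons. Sdhb, the iron-sulphur subunit, overlapped, with 20.7 to 37.7 CPM in choroid plexus and 24.1 to 27.9 CPM in excitatory neurons.

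Among the core subunits of complex I, which carry its electron path, Ndufs1, Ndufs3, Ndufs7 and Ndufv2 were higher in choroid plexus than in excitatory neurons without overlap. Ndufs1 ran from 99.6 to 147 CPM in choroid plexus and from 79.9 to 93.7 CPM in excitatory neurons. Ndufv2 ran from 58.2 to 83 CPM in choroid plexus and from 47.7 to 52.2 CPM in excitatory neurons, Ndufs3 from 72.1 to 110 and from 55.1 to 71.5 CPM, and Ndufs7 from 23.8 to 45.6 and from 13.9 to 20 CPM, in the same order. Ndufs8 overlapped at 7.59 to 20.4 CPM in choroid plexus and 5.3 to 8.7 CPM in excitatory neurons. Ndufv1, the subunit that binds NADH, had a lower median in choroid plexus, 20.5 CPM against 24.8 CPM in excitatory neurons, and the ranges of 13.1 to 22.8 and 20.5 to 29 CPM overlapped.

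Among accessory subunits of complex I, Ndufb11 stood out with 42.4 to 58.2 CPM in choroid plexus and 13.5 to 18.4 CPM in excitatory neurons. Ndufa10 (chr1:92439010-92473860, minus strand) was the exception to the general order. It had 36.5, 54 and 59.7 CPM in choroid plexus as lowest, median and highest, against 62.1, 67.5 and 74.8 CPM in excitatory neurons and 35.8 to 46.3 CPM in astrocytes. It was the member with the highest ratio to the other classes in excitatory neurons, at 1.42 times. In inhibitory neurons its ratio was 1.51 times, with a mean of 70.6 CPM there and 67.3 CPM in excitatory neurons. Ndufb4 had its lowest class mean in choroid plexus, with a lowest, median and highest level of 7.59, 10.9 and 38.4 CPM, against 18.6, 22.1 and 25.8 CPM in excitatory neurons. Its highest choroid plexus value, in sham VEGFC right, lay above the neuronal range and the median below it.

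**Figure D2:**
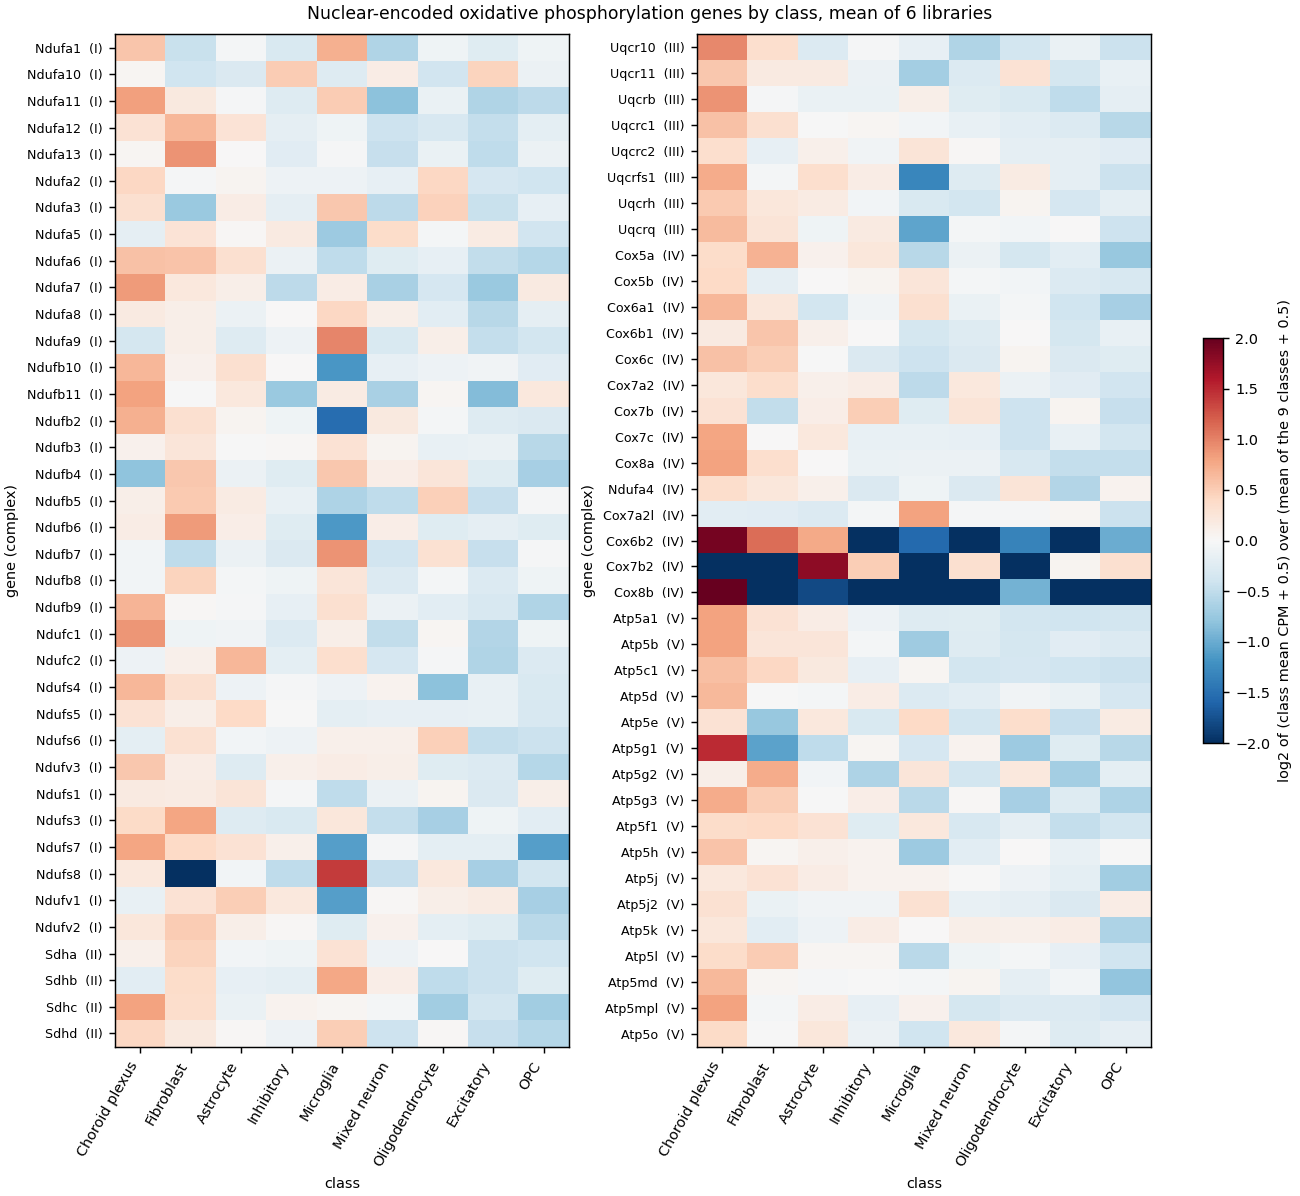
Log2 of the class mean in CPM plus 0.5 over the mean of the 9 classes plus 0.5 (colour, limited to 2 in either direction) for 77 genes that reach 10 CPM in a class (rows, complex in brackets), with classes in order of their summed level (columns). Red cells collect in the choroid plexus column for complexes III and V, and the darkest cells belong to the second isoforms Cox6b2, Cox7b2 and Cox8b.

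Of the 78 genes that reached a mean of 10 CPM in at least 1 class, 40 had their highest class mean in choroid plexus, 15 in fibroblasts, 12 in microglia, 5 in astrocytes, 3 in oligodendrocytes, 2 in inhibitory neurons, 1 in mixed neurons and 0 in excitatory neurons or OPC. The lowest mean was in excitatory neurons for 21, in OPC for 20 and in microglia for 16. The same counts were not made over all genes, so what is particular to the members cannot be read from them. Apart from the 3 restricted isoforms, the ratio of highest to lowest class mean had a median of 2.32, from 1.49 (Uqcrc2) to 13.5 (Ndufs8). Microglia and fibroblasts, with 54357 to 207540 and 45757 to 157647 UMIs per library, weigh heavily in it. Without them the median was 1.94, from 1.19 (Ndufb8) to 4.71 (Atp5g1). Ndufs8 in microglia, for example, spanned 0 to 61.5 CPM over the libraries.

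The second isoforms of complex IV were restricted. Cox6b2 (chr7:4751792-4753094, minus strand) is an isoform of an outer subunit of cytochrome c oxidase that is known from testis. It had 67.7, 95.1 and 150 CPM in choroid plexus as lowest, median and highest, 32.8, 46.6 and 57.3 CPM in astrocytes and 0 to 104 CPM in fibroblasts, where 42 UMIs were seen and 1 library had none. In excitatory neurons it had 15 UMIs in all, 0 to 0.611 CPM. No astrocyte library reached the choroid plexus range.

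Ttr UMIs appear at a low level in all classes, and their share of the choroid plexus level was set beside that of Cox6b2. In astrocytes the mean of Cox6b2 was 44.6% of that in choroid plexus, while that of Ttr was 5.16%. In OPC the shares were 12.9% for Cox6b2 and 4.94% for Ttr, in oligodendrocytes 10.1% and 7.03%, and in excitatory neurons 0.25% and 2.2%. The astrocyte clusters differed as well. Pooled over libraries, Astrocyte 3 had 73.3 CPM (95% Poisson interval 64.8 to 82.7, counting error only) and Astrocyte 1 had 28.6 CPM (24.6 to 33.1), and their library ranges of 49.4 to 92.5 and 20.4 to 41.2 CPM did not overlap. The general partner Cox6b1 varied less, at 29.8 to 37.8 CPM in astrocytes, 28.3 to 47.6 CPM in choroid plexus and 20.3 to 29.3 CPM in excitatory neurons. Its ranges in astrocytes and excitatory neurons did not overlap.

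Cox8b (chr7:140898945-140900446, minus strand), the isoform of subunit 8 known from heart and skeletal muscle in rodents, was found mostly in choroid plexus. That class held 57 of its UMIs, 78.1% of all, in 52 nuclei with at most 2 each. Its level there was 4.72, 20.1 and 32.9 CPM as lowest, median and highest, and its class mean was at most 0.902 CPM elsewhere. No UMI was seen in OPC, microglia, fibroblasts or mixed neurons, which allows pooled levels of up to 1.53, 5.3, 4.92 and 0.846 CPM. The general partner Cox8a was also highest in choroid plexus, at 173 to 237 CPM, against 73.1 to 92 CPM in excitatory neurons.

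Cox7b2 (chr5:71442824-71548205, minus strand), a relative of Cox7b known from testis, marked other classes. It had 24.9, 29.2 and 46.8 CPM in astrocytes, 8.82, 12.6 and 15.8 CPM in inhibitory neurons, 7.11, 8.95 and 12.7 CPM in excitatory neurons and 3.13 to 22.6 CPM in OPC. In choroid plexus it had 3 UMIs in all, and in oligodendrocytes, microglia and fibroblasts 1 UMI each. Astrocytes held both Cox6b2 and Cox7b2, choroid plexus Cox6b2 without a comparable level of Cox7b2, and neurons the reverse.

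Cox6a2 (chr7:128205435-128206387, minus strand), the heart and muscle isoform of Cox6a1, was a rare message with 100 UMIs, of which 77 (77%) lay in inhibitory neurons. The cluster Inhibitory neuron 1 held 56 of them, 9.15 CPM (95% Poisson interval 6.92 to 11.9), and Inhibitory neuron 6 held 15, 8.12 CPM (4.55 to 13.4). Inhibitory neuron 1 also had 40.4 CPM of Pvalb and 331 CPM of Sst, markers of parvalbumin and somatostatin interneurons that were at most 3.21 and 45.9 CPM in the other inhibitory clusters. Itgad, which it overlaps, averaged 16.3 CPM in Inhibitory neuron 1 but had no UMI in Inhibitory neuron 6. Cox7a1 and Ndufa4l2 stayed below 10 CPM in every class mean, and their partners Cox7a2 and Ndufa4 had 34.9 to 95.1 and 63.3 to 101 CPM in choroid plexus, against 42.4 to 49.7 and 37.5 to 54.6 CPM in excitatory neurons.

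**Figure D3:**
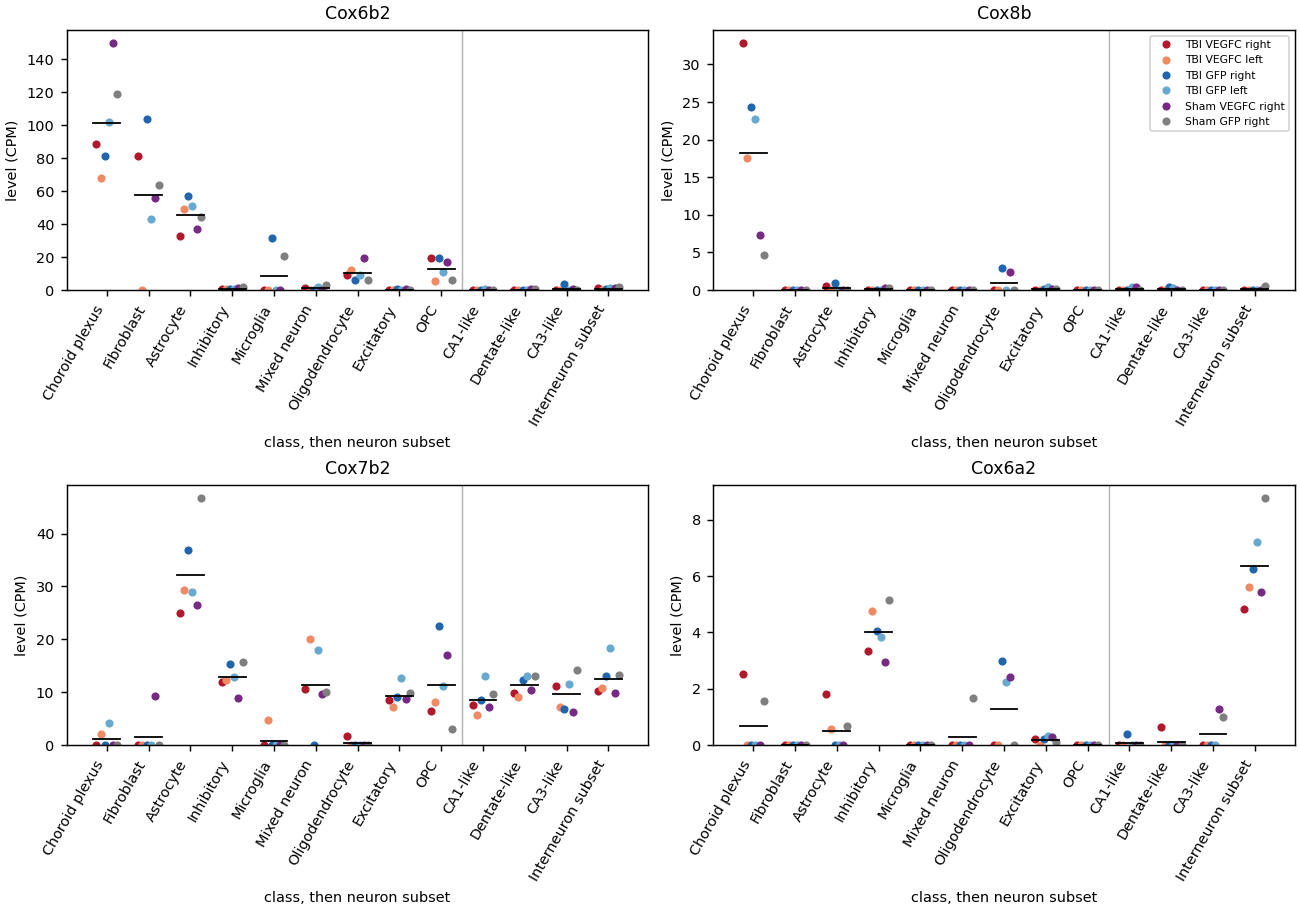
Level in CPM (y axis, a scale of its own in each panel) of 4 second isoforms of complex IV in 9 classes and, right of the grey line, 4 neuron subsets (x axis); each point is 1 library and bars are means. Cox6b2 is high in choroid plexus, fibroblasts and astrocytes, Cox8b in choroid plexus, Cox7b2 in astrocytes and Cox6a2 in inhibitory neurons and the interneuron subset.

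Astrocytes stood between choroid plexus and neurons. Their sum was 1.29 ± 0.02 times that of excitatory neurons (SD, n = 6; 1.25 to 1.31), and the ratios of the 5 complexes lay between 1.2 for complex III and 1.33 for complex IV. Of 77 members, 32 were higher without overlap (41.6%), against 36.8% of all genes, and 2 were lower, Ndufa10 and Cox7a2l, against 28.4% of all genes. The share above was thus close to the background. With nuclei of at least 2000 UMIs the count above was 19 of 76 (25%), against 32% of all genes. Cytosolic ribosomal protein genes were 1.12 times as high in astrocytes as in excitatory neurons, and the other short messages 1.8 times. Ndufc2, an accessory subunit of complex I, had the third highest astrocyte ratio after Cox7b2 and Cox6b2, with 71.7, 78.6 and 84.6 CPM in astrocytes and 28.8, 31.3 and 37.6 CPM in excitatory neurons.

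Within neurons the interneuron subset was the highest. It pools the inhibitory clusters 1, 3, 6 and 8, while CA1-like, CA3-like and dentate granule-like neurons are the excitatory clusters whose fixed markers lead there. Its sum of 3368 to 3793 CPM was 1.33 ± 0.02 times that of CA1-like neurons, which had 2506 to 2934 CPM (SD of the ratio, n = 6; 1.29 to 1.35). Complex IV led with 1.48 times, and complex I was at 1.23 times. Cytosolic ribosomal protein genes stood at 1.07 times and the other short messages at 0.757 times. Of 75 members 27 were higher without overlap (36%), against 29% of all genes, and 0 were lower, against 16% of all genes. The cluster Inhibitory neuron 1 had the highest sum of any neuronal cluster, 3721 to 4197 CPM.

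Cox7b (chrX:106015700-106022450, plus strand), a small subunit of complex IV, had the largest ratio of these 27 genes, 1.91. Its lowest, median and highest levels were 202, 212 and 241 CPM in the interneuron subset and 102, 111 and 126 CPM in CA1-like neurons. Cox8a had 102 to 119 CPM in the interneuron subset and 67.6 to 80.8 CPM in CA1-like neurons, and Atp5a1 had 121 to 132 and 86.3 to 99.2 CPM. The 3 genes are thus apart in every library.

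Dentate granule-like neurons had 1.12 times the sum of CA1-like neurons (1.1 to 1.16). There 10 of 74 members were higher without overlap (13.5%), against 21% of all genes. Ndufs3, a core subunit, was one with 68.5, 79.8 and 91.7 CPM in dentate granule-like neurons and 44.1, 56 and 66.9 CPM in CA1-like neurons. Ndufa10 was the 1 member lower, with 50.7 to 67.1 CPM in dentate granule-like neurons and 68.3 to 75.4 CPM in CA1-like neurons, against 15.4% of all genes. Cytosolic ribosomal protein genes had 1.32 times the CA1-like level in dentate granule-like neurons, and the other short messages 1.01 times.

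CA3-like neurons had 1.04 times the CA1-like sum (0.992 to 1.07). Only 3 of 73 members, Atp5g1, Cox6a1 and Atp5a1, were higher without overlap, against 11.7% of all genes, and 0 were lower, against 13.7%. Complex IV was 1.14 times as high (1.09 to 1.21) with the same direction in all 6 libraries, while complex I was higher in 3 of 6. Cytosolic ribosomal protein genes stood at 0.932 times the CA1-like level and the other short messages at 0.803 times. In the oligodendrocyte lineage, mature cells had 1.11 times the sum of OPC (1.05 to 1.21). Cytosolic ribosomal protein genes had 1.19 times the OPC level there, and the other short messages 1.78 times. No member was higher in oligodendrocytes without overlap, against 13.9% of all genes, and 1 was lower, Cox7b2, against 19.6% of all genes.

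Other genes of mitochondrial function were read from fixed lists. In choroid plexus, 17 TCA cycle genes had 1.86 times the excitatory level, 17 glycolysis genes 1.84 times, 39 assembly factors 1.43 times and 78 mitochondrial ribosome genes 1.39 times, each in the same direction in all 6 libraries. In the same class 14 regulators of mitochondrial number had 4.17 times the excitatory level (3.76 to 4.66). Most of that was Esrrg, a nuclear receptor known to act on mitochondrial genes, with 1365 to 1690.4 CPM in choroid plexus and 104 to 133 CPM in excitatory neurons. Ppargc1a, a coactivator known for its part in mitochondrial biogenesis, had 253 to 321 CPM in choroid plexus, 232 to 252 CPM in astrocytes, 72.9 to 88.2 CPM in excitatory neurons and 0 to 2.98 CPM in oligodendrocytes. In astrocytes the TCA cycle list was 1.42 times and the glycolysis list 1.7 times the excitatory level, while assembly factors were 1.03 times.

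The first treatment comparison asked how VEGFC differs from GFP over the 3 contexts of TBI right, TBI left and sham right. No member passed in any class. Over the 9 classes 0 of 510 member tests had an adjusted p under 0.05 with edgeR's quasi-likelihood test, against 0.0281% of all tests. An unadjusted p under 0.05 was found in 18 member tests (3.53%), against 5.41% of all tests. Over the 4 neuron subsets 0 of 303 passed, against 0.0247% of all tests, and 10 (3.3%) had an unadjusted p under 0.05, against 6.12%. DESeq2 and limma-voom also called 0. The median log2 fold change of the members was -0.02 in excitatory neurons, 0 in astrocytes and inhibitory neurons and 0.04 in choroid plexus.

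The members with the smallest p are given as not past the threshold. Ndufa13, an accessory subunit of complex I, had 91.9, 58.2 and 62.9 CPM with VEGFC (TBI right, TBI left, sham right) in oligodendrocytes, against 52.4, 49.3 and 32.7 CPM with GFP. Its log2 fold change was 0.68 ± 0.23 (SE; edgeR adjusted p 0.494), and VEGFC was above GFP in 3 of 3 contexts. Cox5a, a matrix-side subunit of complex IV, had 27.8, 52.4 and 43.9 CPM with VEGFC in choroid plexus, against 67.7, 70.5 and 72.3 CPM with GFP, and the groups did not overlap. Its log2 fold change was -0.76 ± 0.24 (SE; edgeR adjusted p 0.578). Sdha in OPC had 41.5, 53.8 and 33.9 CPM with VEGFC and 107, 86.5 and 65.7 CPM with GFP, with a log2 fold change of -0.95 ± 0.26 (SE; edgeR adjusted p 0.632).

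**Figure D4:**
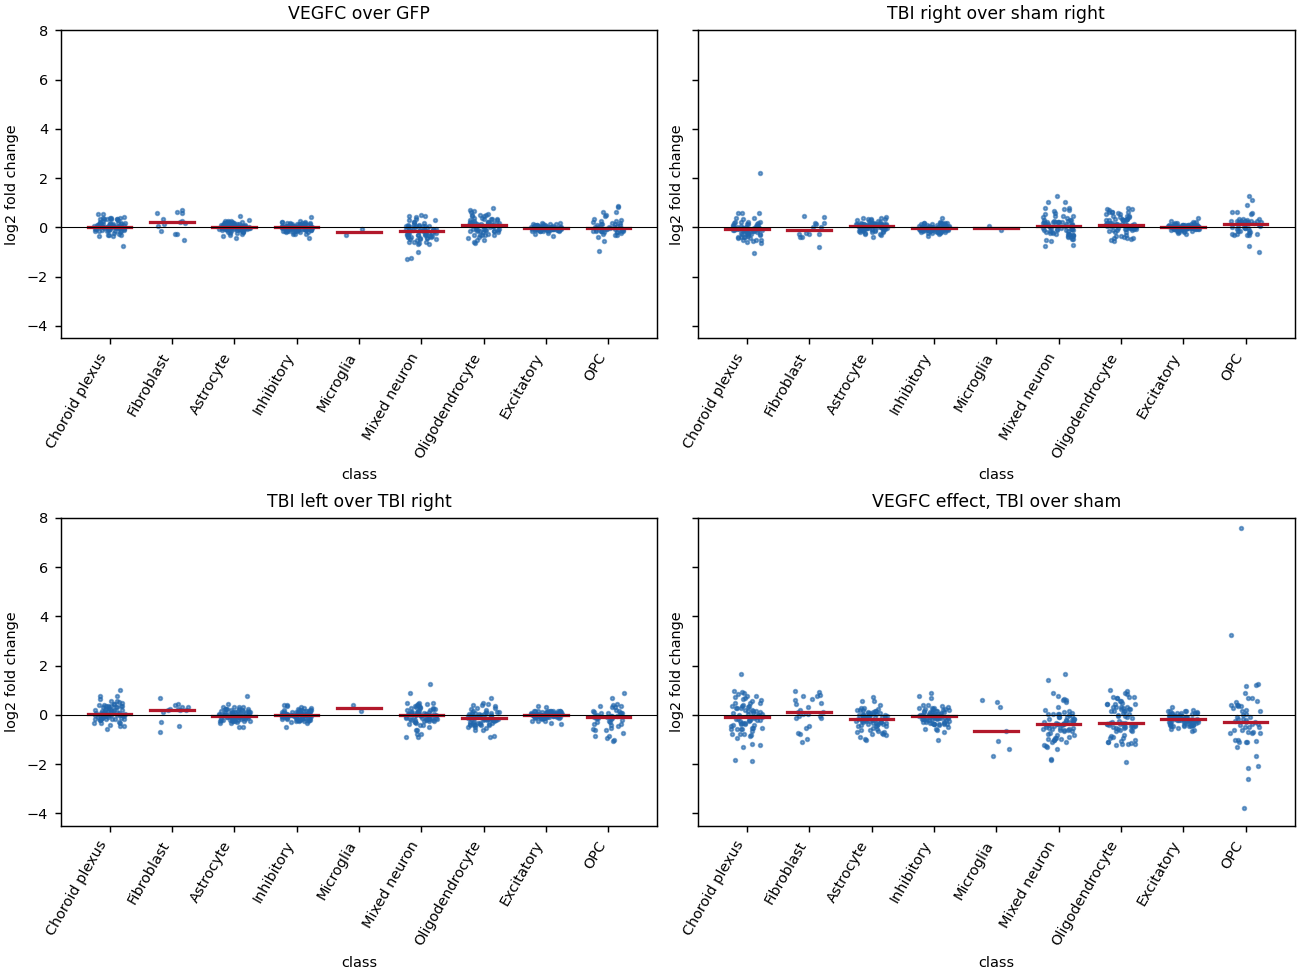
Log2 fold change of each member tested (points) in 9 classes (x axis) for 4 comparisons (panels); red bars are medians over the members. No point passed an adjusted p of 0.05, and the widest spread is in OPC in the last panel, where 1 library has 0 UMIs of the gene at 7.59.

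The second comparison asked how the right hippocampus after TBI differs from that after sham. With edgeR 0 of 510 member tests passed over the 9 classes, against 0.0782% of all tests, and 21 (4.12%) had an unadjusted p under 0.05, against 5.03% of all tests. Over the neuron subsets 0 of 303 passed, against 0.0884% of all tests, and 12 (3.96%) had an unadjusted p under 0.05, against 5.7%. DESeq2 and limma-voom called 0 as well. The largest value in choroid plexus was Cox8b. It had 32.9 CPM in TBI VEGFC right and 24.4 CPM in TBI GFP right, and 17.5 and 22.8 CPM in the left libraries of TBI VEGFC and TBI GFP, against 7.32 CPM in sham VEGFC right and 4.72 CPM in sham GFP right. All 4 TBI values lay above both sham values. The right libraries rest on 13 and 18 UMIs after TBI and 4 and 3 UMIs after sham. The log2 fold change was 2.21 ± 0.61 (SE; edgeR p 0.000285, adjusted p 0.131).

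Cox6b2 had the opposite sign in the same class. It had 88.6 and 81.2 CPM in the right libraries after TBI (VEGFC, then GFP), against 150 and 119 CPM after sham, a log2 fold change of -0.65 ± 0.22 (SE; edgeR adjusted p 0.461). Both TBI libraries lay below both sham libraries. Atp5g2 in OPC had 92.6 and 84 CPM after TBI, against 33.9 and 47 CPM after sham, a log2 fold change of 1.13 ± 0.33 (SE; edgeR adjusted p 0.695). Without the sham VEGFC library, Ndufb3 in OPC passed with a log2 fold change of 3.33 (edgeR adjusted p 0.0279), against a sham GFP library of 2 UMIs.

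The third comparison set the left against the right hippocampus after TBI. The labels do not say which side was struck. With edgeR 0 of 510 member tests passed over the classes, against 0.0318% of all tests, and 17 (3.33%) had an unadjusted p under 0.05, against 3.49% of all tests. In the neuron subsets 0 of 303 passed, against 0.00822% of all tests, and 9 (2.97%) had an unadjusted p under 0.05, against 3.7%. DESeq2 and limma-voom gave 0 too. Atp5b in choroid plexus had 188 and 172 CPM on the left (VEGFC, then GFP) and 119 and 124 CPM on the right, a log2 fold change of 0.54 ± 0.2 (SE; edgeR adjusted p 0.999). Atp5f1, a stalk subunit of ATP synthase, had 29.6 and 36.3 CPM on the left in OPC and 63.9 and 74.3 CPM on the right, a log2 fold change of -1.07 ± 0.35 (SE; edgeR adjusted p 0.991).

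The fourth comparison asked whether the difference of VEGFC from GFP after TBI departs from that after sham, with the 2 sides of TBI taken as replicates. Its p-values thus assume that sides vary like replicates, and both sides may come from the same mice. More members lay below 0 than above it in every class but fibroblasts. In excitatory neurons 61 of 76 members had a value below 0, the median was -0.17 on the log2 scale against -0.01 for all genes, and 13 (17.1%) had an unadjusted p under 0.05, all negative, against 9.44% of all genes. None passed the adjusted threshold with edgeR. In mixed neurons 55 of 73 were below 0 with a median of -0.37, in astrocytes 55 of 77 (-0.16), in oligodendrocytes 44 of 74 (-0.31), in OPC 34 of 54 (-0.27), in inhibitory neurons 49 of 77 (-0.06), in choroid plexus 42 of 76 (-0.08) and in microglia 4 of 7 (-0.66), against 10 of 25 (0.1) in fibroblasts. The median over all genes lay between -0.01 and 0.02 in each class. All these values share the same 6 libraries. How many of all genes lay below 0 was not counted. Over all 9 classes 0 of 539 member tests passed, against 0.221% of all tests, and 42 (7.79%) had an unadjusted p under 0.05, against 7.24% of all tests. Over the subsets 0 of 304 passed, against 0.239%, and 21 (6.91%) had an unadjusted p under 0.05, against 7.63%. The shares at an unadjusted p over the classes and subsets were thus close to the background. DESeq2 and limma-voom called 0 of the members.

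Atp5g3, the c-ring gene, had the smallest p in excitatory neurons. With VEGFC it had 32.3, 34 and 41.9 CPM in TBI right, TBI left and sham right, against 36.4, 41.9 and 30.6 CPM with GFP. VEGFC was below GFP on both TBI sides and above it after sham, and the log2 value was -0.64 ± 0.17 (SE; edgeR adjusted p 0.226). Leaving out the TBI GFP right library gave -0.72 with an adjusted p of 0.0217 (edgeR). Ndufb3, an accessory subunit of complex I, in OPC had 31.9, 24.2 and 47.5 CPM with VEGFC and 67.8, 41.8 and 6.26 CPM with GFP, a log2 value of -3.77 ± 0.97 (SE; edgeR adjusted p 0.0805). The sham GFP value rests on 2 UMIs. Without the TBI GFP left library its adjusted p was 0.0255 (edgeR). Ndufb4 in OPC had no UMI in the sham VEGFC library, so its fitted 7.59 is not a size of effect. In the subsets, leaving out a library gave 1 call each: Ndufa11 in dentate granule-like neurons without TBI GFP right (-1.58, edgeR adjusted p 0.0425) or TBI VEGFC right (-1.79, adjusted p 0.0165), and Ndufb3 in the interneuron subset without TBI VEGFC left (-1.18, adjusted p 0.0308).

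The single contexts show where the excitatory values lie. On the left after TBI the members summed to 2723 CPM with VEGFC and 3186 CPM with GFP, a ratio of 0.855, and all 73 members of at least 10 CPM were lower with VEGFC, against 61.3% of all genes. On the right after TBI the sums were 2906 CPM with VEGFC and 2916 CPM with GFP, a ratio of 0.997, and 39 of 73 were lower (53.4%), against 56.1%. After sham they were 3034 CPM with VEGFC and 2839.8 CPM with GFP, a ratio of 1.07, and 22 of 73 were lower (30.1%), against 49.6% of all genes. Each of these sets 1 library beside 1 other, with no replicate.

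The left TBI libraries and the sham libraries also differ in depth, in opposite directions. After sham the median excitatory nucleus had 3607 UMIs with VEGFC, the lowest of the 6 libraries, and 4457 UMIs with GFP. On the left after TBI it had 5899 UMIs with VEGFC, the highest of the 6 libraries, and 3784 UMIs with GFP. A window of 3000 to 6000 UMIs per nucleus was chosen after seeing the data. Within it the left ratio was 0.933 and 54 of 73 members were lower, against 53.9% of all genes. The left medians still differed there, at 4683 UMIs with VEGFC and 4161 UMIs with GFP. The part of depth was not tested further. The window also gave 0.995 on the right and 1.01 after sham, with 38 and 37 of 73 members lower, against 55.2% and 54% of all genes. Cytosolic ribosomal protein genes had a left ratio of 0.82 in all excitatory nuclei and other short messages 0.839. Mitochondrial ribosome genes had 0.879, assembly factors 0.975 and the 13 mitochondrially encoded genes 1.06. In astrocytes 60 of 77 members were lower with VEGFC on the left, against 58.3% of all genes, and in inhibitory neurons 43 of 75, against 51.9%.

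**Figure D5:**
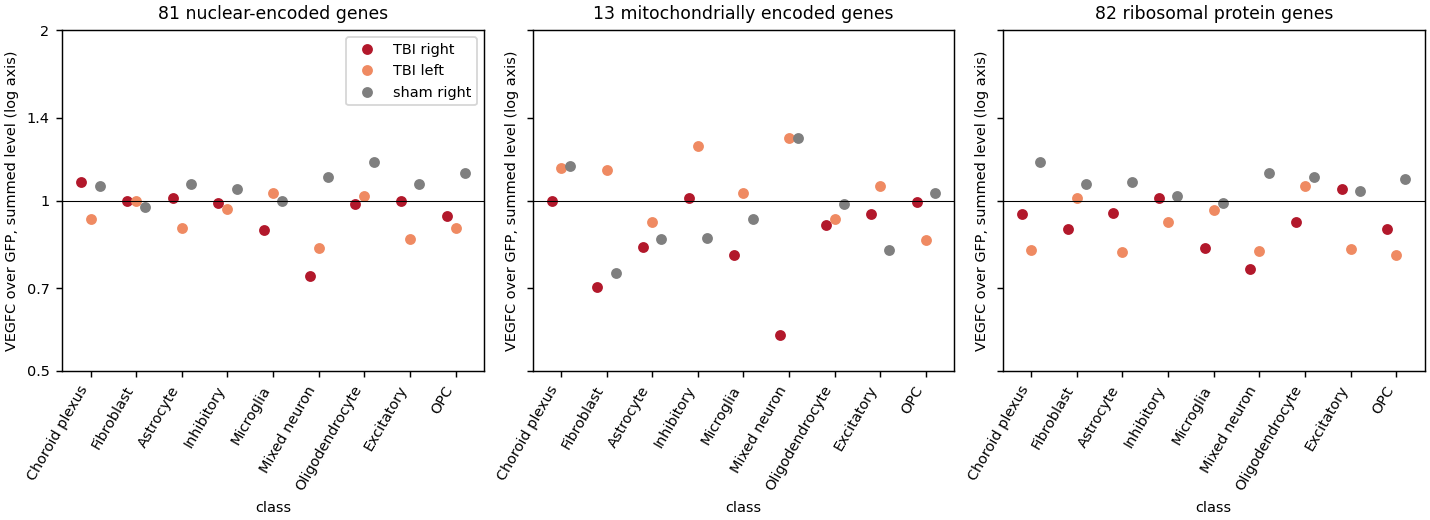
Summed level with VEGFC over that with GFP (y axis, log scale) in 3 contexts (colours) for the nuclear-encoded members, the mitochondrially encoded genes and ribosomal protein genes in 9 classes (x axis), with 1 library on each side of a ratio. In excitatory neurons the TBI left point of the members lies at 0.855 and the sham point at 1.07, and the ribosomal protein genes have a TBI left point of 0.82.

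Of the other lists, none of the 17 TCA cycle, 17 glycolysis, 39 assembly, 14 regulator, 78 mitochondrial ribosome and 8 further subunit or carrier genes passed in any class or subset in the 4 comparisons with edgeR. Among the mitochondrially encoded genes, mt-Nd3 passed in the interneuron subset, higher on the left than on the right after TBI, and mt-Cytb passed in dentate granule-like neurons in the fourth comparison, with a positive value. Rpl6 was the 1 ribosomal protein gene that passed, with a negative value in CA1-like neurons in the fourth comparison.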

How the data were processed

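Nuclei of 6 mouse hippocampus libraries were extracted with a Miltenyi buffer and prepared with the 10x Genomics Chromium 3′ kit v3.1, per the labels' protocols. Cell Ranger 7.0.1, Scanpy and the build mm10 are named in the submitters' processing notes. The deposited table holds raw UMI counts of 26049 genes in 28650 nuclei, and the authors deposited with it each nucleus's library, class, cluster, percent of mitochondrial UMIs (at most 0.999) and doublet score (at most 0.099). The lowest nucleus has 1001 UMIs. No doublet caller was run here beyond that deposited score, and 0 deposited columns of per-sample values were left unused.

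UMIs were summed per library and class and given per 1000000 UMIs (CPM). 1 symbol that fits the pattern was set aside as a pseudogene. Sums of all genes were tested with edgeR 4.0.16 (quasi-likelihood, TMM, filterByExpr) in R 4.3.3 with context and vector as terms, or injury, vector and their product, and Benjamini-Hochberg adjustment within class and comparison at 0.05. DESeq2 1.42.0 and limma-voom (limma 3.58.1), other scalings, no filter, nuclei of at least 2000 UMIs, leaving out each library and sums without mitochondrially encoded and ribosomal protein genes were alternatives. The scripts were tested on simulated data. Class against class is described by ranges that do not overlap among genes of at least 10 CPM in either class. Coordinates are from GENCODE M21 (GRCm38). Where no UMI was seen, 3 UMIs of the class total set the limit, and intervals are at the 95% level, for counting error only.

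Genes named are the up to 3 members in each direction with the smallest p in a comparison, the 3 with the highest and lowest ratio in a class, complex II, the complex I core, isoform pairs, c-ring, F1 alpha and beta and the inhibitor. Complex III genes, Ndufb11, Cox7b, Cox8a in interneurons and Ndufs3 in dentate neurons are examples chosen after their values were seen. The members and lists were chosen with earlier results of these data known. 1 gene of the rule is not reported here.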

Additional observations from a re-analysis of the deposited data

How the results depend on the processing

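Libraries could not be paired by the replicate numbers of the labels, 1 to 6, which are each used once and shared by no groups. The fit of the first 3 comparisons did match libraries through its context and vector terms, and without the context term VEGFC against GFP also gave 0 members called over the classes and over the neuron subsets. Of 106 alternative counts of members called, 100 equalled the count of 0. When 1 library was left out in turn, the count ranged from 0 to 1 for TBI right against sham right over the classes, and from 0 to 1 for the fourth comparison over the classes and over the neuron subsets. Of 307 alternative fold changes of named genes, 305 kept their direction and side of the threshold, 2 passed it and 0 reversed. Summed levels were lower for astrocytes among nuclei of at least 2000 UMIs (3484 CPM) and as a median over nuclei (3329 CPM), for OPC in the same settings (2589 and 2547 CPM), and for choroid plexus as a median over nuclei (4793 CPM), the other 70 of 75 values moving by less than 1 SD. With nuclei of at least 2000 UMIs the members without overlap were 2 for choroid plexus below excitatory neurons (2.63%, against 22.3% of all genes), 19 for astrocytes above excitatory neurons (25%, against 32%) and 0 for oligodendrocytes below OPC (against 11.5%). Sums without mitochondrially encoded and ribosomal protein genes gave 1 member higher in oligodendrocytes than OPC (1.3%, against 14% of all genes). Leaving out 1 library gave 1 to 2 members for choroid plexus below excitatory neurons (against 23.4% to 23.9% of all genes), 0 to 1 for CA3-like below CA1-like neurons (15.1% to 16.1%), 0 to 4 for oligodendrocytes above OPC (15.1% to 15.7%) and 1 to 2 for oligodendrocytes below OPC (20.8% to 21.4%). The cause was not tested. Not run were the depth limit for oligodendrocytes (summed level), microglia and fibroblasts, which left too few nuclei, and the fourth comparison without either sham library, which leaves no sham contrast. Depth limits most of what can be said of microglia and fibroblasts, where 2 and 14 members passed the filter on low counts in the first 3 comparisons and 7 and 25 in the fourth.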

Other observations

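Of 8 fixed subunit and carrier genes outside the symbol rule, 7 reached 10 CPM in choroid plexus or excitatory neurons. Of these, 5 (Cox4i1, Cyc1, Cycs, Ndufab1 and Coq10b) were higher in choroid plexus without overlap, as were 41.6% of all genes, and Etfdh and Dhodh overlapped. Cox4i1, the general isoform of the largest nuclear-encoded subunit of cytochrome c oxidase, ran from 279 to 355 CPM in choroid plexus and from 93.3 to 128 CPM in excitatory neurons. Cyc1, cytochrome c1 of complex III, ran from 51.2 to 89.2 CPM in choroid plexus and from 18.8 to 27.1 CPM in excitatory neurons, and Cycs, the electron carrier cytochrome c, from 35.4 to 53.4 and from 19.1 to 24 CPM in the same order. Etfdh, which passes electrons from fatty acid oxidation to ubiquinone, had 19.7 to 60.4 CPM in choroid plexus and 20.6 to 24.9 CPM in excitatory neurons, and Dhodh, an enzyme of pyrimidine synthesis, averaged 13.4 CPM in both. Nrf1, the factor whose motif was searched in the promoters, was highest in astrocytes, at 218 to 240 CPM, against 87.7 to 98.6 CPM in excitatory neurons and 124 to 171 CPM in choroid plexus. Ppargc1b, a coactivator related to Ppargc1a, was at 1.74 to 3.44 CPM in astrocytes and 43 to 52.8 CPM in excitatory neurons, the reverse of the order of Ppargc1a.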
